A study of Mus musculus with 20 samples.

Results

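The genes described here encode the subunits of the receptors for glutamate and GABA, the main excitatory and inhibitory transmitters of the forebrain. They were taken by gene symbol, without any use of their values: the AMPA, kainate, NMDA and delta subunits of the ionotropic glutamate receptors, the metabotropic glutamate receptors, and the GABA-A and GABA-B subunits. The symbols gave 46 genes out of 51912 identifiers in the 24 h table and 44 of the same 46 out of 19722 identifiers in the 4 h table, where Gabrp and Gabrr3 are not listed. The reads of these genes made up 0.439% to 0.524% of each library at 24 h and 0.444% to 0.498% at 4 h.

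Ionotropic glutamate receptors are cation channels. AMPA receptors carry most fast excitation, kainate receptors adjust it before and after the synapse, and NMDA receptors admit calcium when transmitter release and depolarisation coincide. Every NMDA receptor holds the GluN1 subunit, and in the rodent forebrain GluN2B is the main partner around birth while GluN2A is added as synapses mature. GABA-A receptors are chloride channels built mostly from alpha, beta and gamma subunits, with alpha2, alpha3 and alpha5 prominent in the immature cortex. Metabotropic glutamate receptors and GABA-B receptors act through G proteins, and a GABA-B receptor needs both GABBR1 and GABBR2.

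Slices of forebrain were cut from mouse pups at postnatal day 4 and cultured, and all were exposed to 5% horse serum in medium. At 24 h, 4 libraries came from knockout (KO) males, 3 from heterozygous (Het) males, 4 from KO females and 3 from Het females. At 4 h, 3 libraries were KO and 3 wild type (WT), with no sex given. The targeted gene is Tnfaip6, which encodes the hyaluronan-binding protein TSG-6. Every group at 24 h, controls included, therefore carries at least 1 targeted allele by its label, whereas the 4 h controls are WT. The treatment text of the 24 h libraries speaks of WT slices, but their titles and genotype labels say heterozygous, and Het follows these. The labels give neither strain nor litter, and nothing in them tells whether replicate libraries are different animals. The p-values therefore measure only the spread between these libraries, which may be technical.

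Library totals ran from 8482933 to 18051300 reads at 24 h and from 11411532 to 15030171 at 4 h. Tnfaip6 had 54 to 108 reads in KO and 45 to 69 in Het libraries at 24 h, and 37 to 83 reads in KO against 76 to 94 in WT libraries at 4 h; with no record here of the deleted part, these reads do not check the genotype, and KO means labelled KO throughout. The library labelled KO female 2 held 0 Xist reads and 826 reads of the Y-linked Ddx3y. At 24 h, counts of receptor genes at an unadjusted p under 0.05 that use female libraries are therefore given with and without it. So are the named differences within females and between the sexes. Group means, shares and, apart from Grin2a, differences averaged over the sexes include it. Het male 1 held 107 Xist reads beside 656 Ddx3y reads, where the other male libraries at 24 h held 0 to 5 Xist reads. Het male 1 is included in the group values and differences given here. At 4 h, KO 1 and WT 1 held 2355 and 5655 Xist reads, and the other 4 libraries held 0 to 3. All 8 forebrain markers were detected in both tables. The summed level of the hindbrain and cerebellum markers was at most 0.388 CPM (counts scaled by library total) at 24 h and 0 at 4 h.

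Because the members differ so much in level, 4 promoters are shown first: those of a lower and a higher transcript each on chromosome 5 and chromosome 4. Each is the RefSeq window of 300 bases, from 250 before to 50 after the annotated start, on the strand of the gene in GRCm38.p6, with every CG dinucleotide in capitals. Gabra2, the alpha2 subunit, is read from chr5:71095800-71096099 on the minus strand. Gabrg1, the gamma1 subunit beside it, is read from chr5:70842568-70842867, also on the minus strand. Grik3, the kainate subunit GluK3, is read from chr4:125490446-125490745 on the plus strand, and Gabrr2, a rho subunit known from the retina, from chr4:33062862-33063161 on the plus strand.
Gabra2: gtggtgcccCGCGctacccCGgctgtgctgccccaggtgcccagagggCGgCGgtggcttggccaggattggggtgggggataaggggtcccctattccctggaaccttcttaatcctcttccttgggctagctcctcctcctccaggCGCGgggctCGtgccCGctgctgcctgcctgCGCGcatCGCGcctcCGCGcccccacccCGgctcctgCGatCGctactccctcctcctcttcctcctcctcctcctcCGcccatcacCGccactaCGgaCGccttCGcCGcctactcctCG
Gabrg1: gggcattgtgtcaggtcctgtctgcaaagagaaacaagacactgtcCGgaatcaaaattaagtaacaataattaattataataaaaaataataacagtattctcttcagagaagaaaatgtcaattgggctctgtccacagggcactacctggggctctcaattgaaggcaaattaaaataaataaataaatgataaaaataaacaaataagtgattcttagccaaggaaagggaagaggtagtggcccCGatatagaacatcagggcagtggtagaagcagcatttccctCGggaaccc
Grik3: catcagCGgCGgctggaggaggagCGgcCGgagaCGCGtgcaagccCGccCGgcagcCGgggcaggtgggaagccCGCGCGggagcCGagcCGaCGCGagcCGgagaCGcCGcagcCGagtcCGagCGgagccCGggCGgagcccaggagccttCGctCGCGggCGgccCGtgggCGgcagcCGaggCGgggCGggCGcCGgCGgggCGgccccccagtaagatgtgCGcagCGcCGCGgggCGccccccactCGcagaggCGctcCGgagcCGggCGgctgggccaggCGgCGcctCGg
Gabrr2: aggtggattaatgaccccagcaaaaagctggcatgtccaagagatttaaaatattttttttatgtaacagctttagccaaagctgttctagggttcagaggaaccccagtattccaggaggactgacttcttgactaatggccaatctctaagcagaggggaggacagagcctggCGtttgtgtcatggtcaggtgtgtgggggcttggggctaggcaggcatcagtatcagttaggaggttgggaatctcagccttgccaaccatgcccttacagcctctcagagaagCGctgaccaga

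The windows hold 25 CG in Gabra2, 3 in Gabrg1, 50 in Grik3 and 2 in Gabrr2. RefSeq windows were at hand for 31 of the 46 genes, 38 windows in all, with a median of 12 CG and a median GC content of 60.17%, against 7 CG and 52.67% over all 32851 promoter windows of the table. The letters TATAAA, read on either strand, stood in 4 of the 38 windows, and in 13.6% of all windows. The 6 receptor genes that were too low to be tested in one table or both had 2 to 9 CG in their richest window, with a median of 3.5, and the other 25 had 0 to 50, with a median of 22. Among these 25, Gabra3, the alpha3 subunit, had 0 CG and Gabrg1 had 3. In both pairs shown the higher transcript had more CG, but this did not hold throughout the 31 genes. In RPKM at 24 h, defined below, Grik4 with 42 CG had 4.34 and Gabre with 24 CG had 0.787. Grik5 with 10 CG had 42.8 and Grm3 with 11 CG had 35.7, while Gabbr2 with 46 CG had 30.9. Whether CG count and level are related was not tested.

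Levels of different genes were compared in RPKM, which divides reads by exon length and library total. The AMPA family was led by Gria1, the GluA1 subunit, in both tables. Its median level was 64.8 RPKM over the 14 libraries at 24 h and 52.6 RPKM over the 6 at 4 h. Gria2, which makes the channel tight to calcium, followed at 27.0 RPKM at 24 h and 24.2 RPKM at 4 h, then Gria4 at 13.2 to 16.1 RPKM at 24 h and 10.8 to 11.6 RPKM at 4 h, and Gria3 with medians of 7.28 and 6.95 RPKM. The ranges of these 4 genes did not touch in either table. Gria1 had 64.4, 59.3, 65.1 and 67.2 RPKM in KO males and 71.1, 68.5 and 51.9 RPKM in Het males. In females it had 51.0, 60.1, 54.8 and 66.6 RPKM in KO and 65.9, 60.9 and 67.2 RPKM in Het slices, and at 4 h 53.4, 51.7 and 51.9 RPKM in KO and 61.0, 56.3 and 46.7 RPKM in WT slices. All of these groups overlapped with their controls. Among kainate subunits Grik5, a high-affinity subunit, stood at 42.8 RPKM at 24 h and 49.5 RPKM at 4 h and Grik3 at 23.3 and 21.2 RPKM, while the ranges of Grik2, Grik1 and Grik4 at 24 h overlapped from neighbour to neighbour between 3.75 and 6.57 RPKM.

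Among the partners of GluN1, Grin2b was far more abundant than Grin2a. Grin2b, encoding GluN2B, had a median of 19.6 RPKM at 24 h and 11.4 RPKM at 4 h. Grin2a, encoding GluN2A, had 1.02 RPKM at 24 h and 0.863 RPKM at 4 h. Grin2b held 72.2% ± 3.1 of the summed GluN2 level in KO females and 71.6% ± 4.8 in Het females (SD, n = 4 and 3). It held 71.0% ± 5.2 in KO males and 65.0% ± 7.6 in Het males (SD, n = 4 and 3). At 4 h the share was 64.8% ± 10.6 in KO and 59.7% ± 1.6 in WT slices (SD, n = 3 each). Grin1, the obligatory GluN1 subunit, measured 9.12 RPKM at 24 h and 11.1 RPKM at 4 h, but it led the family when the length of the longest transcript replaced that of all exons; its exons overlap those of Grin1os on the other strand, and since the strand setting of the counting is not given in the sources used here, reads of the pair cannot be told apart. Grin3a, a subunit that lowers calcium entry, measured 9.64 RPKM at 24 h and 8.64 RPKM at 4 h, and Grin2d, the partner found in interneurons, 5.96 and 5.77 RPKM. Grin2c, at 0.593 RPKM at 24 h and 0.566 RPKM at 4 h, overlapped with Grin2a in both tables. Grin3b lay at 0.0878 RPKM at 24 h and 0.104 RPKM at 4 h, from 0 to 9 reads a library. The orphan delta receptor Grid1 measured 14.2 RPKM at 24 h and 14.9 RPKM at 4 h.

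Metabotropic receptors of the first and second groups were the most abundant of their family. Grm3, found on neurons and astrocytes, had 35.7 RPKM at 24 h and 35.6 RPKM at 4 h, and Grm5, the main receptor coupled to phospholipase C in immature forebrain, 31.4 and 27.3 RPKM. The ranges of these genes overlapped at 24 h. Below them came Grm7 at 11.4 RPKM at 24 h and 10.6 RPKM at 4 h, then Grm4 and Grm2, whose ranges ran into each other between 3.21 and 9.62 RPKM at 24 h, and Grm8 at 1.26 and 1.09 RPKM. Grm6, the receptor of retinal ON bipolar cells, had 0.0692 RPKM at 24 h and 0.0200 RPKM at 4 h, or at most 8 reads in any library. Gabbr1 exceeded Gabbr2 in every library, with medians of 78.2 and 30.9 RPKM at 24 h and 89.8 and 41.2 RPKM at 4 h.

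Of the GABA-A subunits, Gabra3 measured 37.6 RPKM at 24 h and 30.9 RPKM at 4 h. Below it the ranges of Gabrb2 and Gabra5 overlapped at 24 h between 18.2 and 24.9 RPKM. Gabra2, Gabrd, Gabrb1 and Gabra4 overlapped from neighbour to neighbour between 3.99 and 13.0 RPKM. Gabrg3 and Gabrg1 followed at 3.64 and 3.37 RPKM, and Gabrq and Gabre at 1.27 and 0.787 RPKM. Gabra3 was the highest alpha subunit at 24 h, with 43.8% ± 1.4 of the summed alpha level in KO females and 44.2% ± 1.8 in Het females (SD, n = 4 and 3). At 4 h the highest was Gabra5, the alpha subunit of mainly extrasynaptic receptors, with 40.4% ± 1.6 in KO and 40.1% ± 1.4 in WT slices (SD, n = 3 each). The rho subunits and the pi subunit were near silent: Gabrp and Gabrr3 had 8 reads each over all 14 libraries at 24 h and were at 0 in 8 of them, where 3 counts, the limit that a count of 0 allows, correspond to at most 0.354 CPM.

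**Figure D1:**
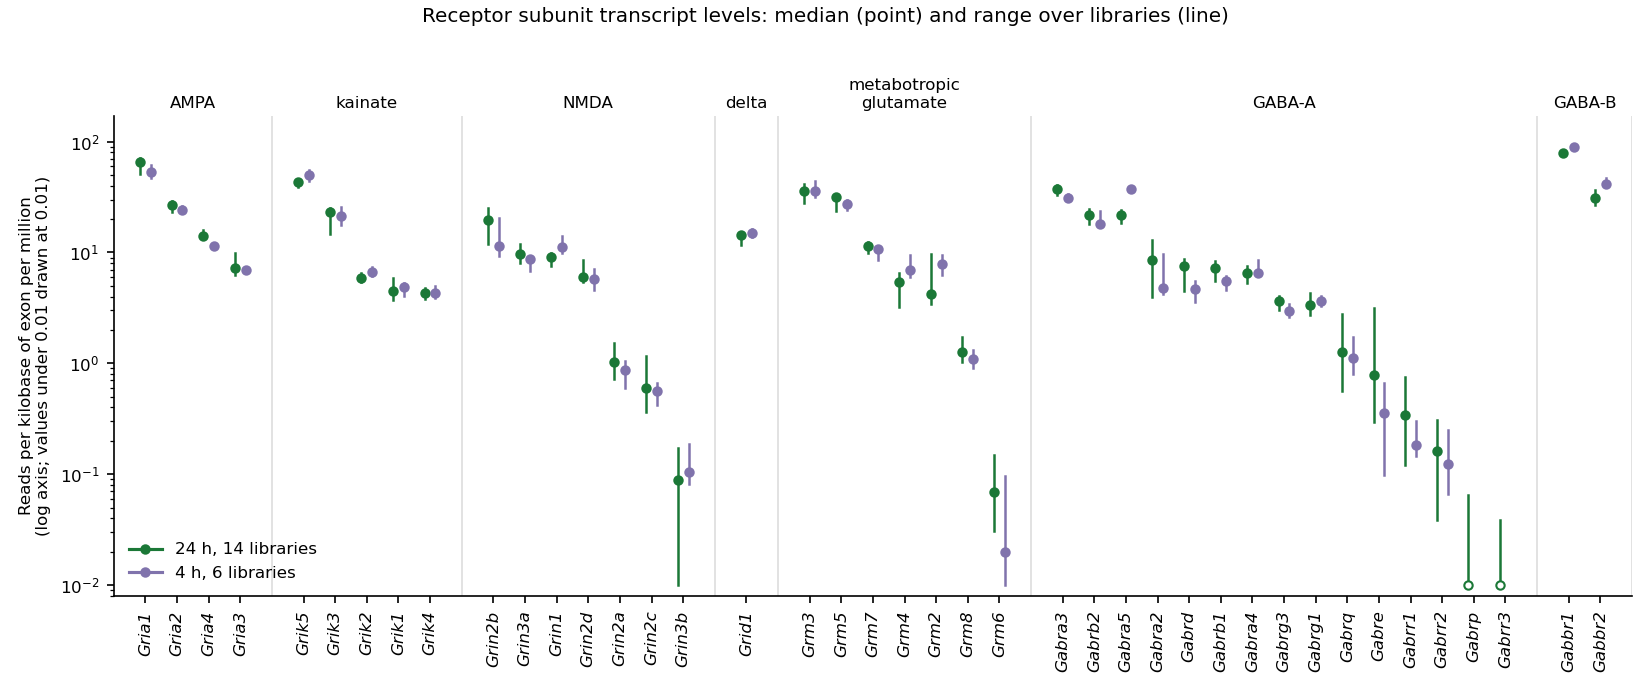
Median (point) and range over libraries (line) of 41 receptor subunit genes in RPKM on a log axis, at 24 h (14 libraries) and 4 h (6 libraries), ordered within family by the 24 h median. Gria1, Grik5 and Gabbr1 lie at the top of their families, Grin2b lies far above Grin2a, and the rho and pi subunits, Grm6 and Grin3b lie lowest.

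The same level was then set side by side in KO slices of both times, without a test, because the tables were made separately and differ in more than time. Of the 40 genes tested in both, the 8 KO libraries at 24 h lay wholly above the 3 at 4 h for 4 genes and wholly below them for 4, while 24.5% and 8.95% of all 15090 genes did so. Those above included Gria4 and Gabra3, and those below were Gabra5, Gabbr2, Grin1 and Gabbr1. Gabbr2 had 27.0 to 36.4 RPKM in KO slices at 24 h and 41.2 to 46.6 RPKM at 4 h. Gabra5 had 19.4 to 24.3 RPKM in KO slices at 24 h and 35.1 to 38.3 RPKM at 4 h. These are the values behind the alpha shares given above.

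The KO and Het slices at 24 h were compared for receptor expression by labelled Tnfaip6 genotype after a day in serum. No receptor gene passed: edgeR's quasi-likelihood test, averaged over the sexes, called 0 of 41 tested genes at an adjusted p under 0.05, against a background of 0% of 16013 genes. At an unadjusted p under 0.05 there were 4 receptor genes, 9.76% of those tested, where 6.62% of all genes reached it (3 receptor genes and 5.45% without the library labelled KO female 2). DESeq2 called 0 receptor genes. The log2 fold change was positive for 28 of the 41 genes, with a median of 0.03 against 0.00 over all genes tested. Counted the same way, 0 members had KO libraries wholly above or wholly below the Het libraries, where 0.0125% and 0.0312% of all genes did. Markers of excitatory neurons leaned the same way, with 10 of 10 positive (9 of 10 without the library labelled KO female 2) and a summed level of 1079 to 1538 CPM in KO and 1030 to 1323 in Het libraries; astrocyte markers leaned the other way, with 1 of 9 positive and summed levels of 3682 to 4664 in KO and 3548 to 5899 in Het libraries. Pan-neuronal markers were positive in 8 of 10, inhibitory neuron markers in 5 of 10 and striatal neuron markers in 5 of 10. Immediate early genes were positive in 10 of 10 and choroid plexus markers in 6 of 6. The part of these lists in the receptor values was not tested, and in RNA from whole slices fewer cells of a type and less RNA per cell cannot be told apart.

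The 6 genes nearest to the threshold at 24 h, in order of their unadjusted p, were Gabrg1, Grin2a, Gabrr1, Grin2b, Grm7 and Grin1. Levels of single genes at 24 h are given from here on in CPM with TMM scaling of the library totals. Gabrg1, the gamma1 subunit known from amygdala and glia, had 22.4, 23.3, 21.7 and 23.8 CPM in KO males, against 34.0, 27.7 and 25.5 CPM in Het males. In females it had 27.0, 23.5, 33.4 and 24.5 CPM in KO and 28.5, 31.0 and 31.5 CPM in Het slices. The male groups did not overlap and the female groups did. The difference averaged over the sexes was -0.25 ± 0.08 on the log2 scale (SE, adjusted p = 0.738, edgeR).

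Grin2a had 20.4, 19.0, 18.7 and 17.1 CPM in KO males and 19.3, 13.0 and 13.0 CPM in Het males. In females it had 22.8, 27.6, 18.4 and 17.5 CPM in KO and 19.1, 14.4 and 16.0 CPM in Het slices. In each sex a single Het library reached into the KO range. The averaged difference was 0.35 ± 0.12 (log2, SE, adjusted p = 0.738, edgeR), and 0.28 without the library labelled KO female 2, which had the highest level of all 14. Grin2b, its more abundant partner gene, averaged 516 ± 102 CPM in KO and 435 ± 91.6 CPM in Het slices (SD, n = 8 and 6). The Grin2b libraries ranged from 312.6 to 632 CPM in KO and from 288 to 529 CPM in Het slices, so the groups overlapped widely. Their difference was 0.26 ± 0.12 on the log2 scale (SE, adjusted p = 0.753, edgeR). It includes the library labelled KO female 2, which had the highest Grin2b level of all 14.

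Grm7, a presynaptic receptor of low glutamate affinity, averaged 68.8 ± 4.1 CPM in KO and 63.4 ± 5.8 CPM in Het slices (SD, n = 8 and 6), and Grin1 89.1 ± 7.3 CPM in KO and 82.4 ± 9.1 CPM in Het slices. Gabrr1 was listed at 0.604 ± 0.244 CPM in KO and 1.17 ± 0.37 CPM in Het slices (SD, n = 8 and 6), but its levels rest on 3 to 19 reads a library (-0.89 ± 0.30 on the log2 scale, SE, adjusted p = 0.738, edgeR). By contrast with Grin2b, Gabbr1 and Gria2 had means close together by genotype. Gabbr1 averaged 611.2 ± 15.8 CPM in KO and 602 ± 24.9 CPM in Het slices (SD, n = 8 and 6), a difference of 0.02 ± 0.04 on the log2 scale, and Gria2 averaged 418 ± 28.6 CPM in KO and 414 ± 30.0 CPM in Het slices, a difference of 0.01 ± 0.05. These intervals, about 0.07 and 0.11 to either side at the 95% level, rest on the spread between these libraries, which may be technical. They therefore do not bound a genotype difference between animals, and they do not show that there was none.

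At 4 h the KO slices were set against WT slices, so the comparison differs from that at 24 h in its controls and in exposure time. With limma on log2(value + 1) of the normalised reads, 0 of 40 tested receptor genes were called at an adjusted p under 0.05, against a background of 0.0461% of 15181 genes. At an unadjusted p under 0.05 there were 8 of the 40 receptor genes, where 13.9% of all genes reached it, and all 8 had the higher mean in KO. DESeq2 on the recovered reads called 2 of the 34 receptor genes it gave an adjusted p, Grik3 and Gabrb2, where it called 161 of 7868 genes (2.05%), and edgeR called 0. The log2 fold change was positive for 30 of 40 genes, with a median of 0.10 against 0.00 over all genes; without WT 3 the median was 0.04, and without a single library the number of positive genes ran from 24 to 34. KO libraries lay wholly above WT libraries for 8 receptor genes, where 10.1% of all genes did so, and wholly below for 0, where 8.88% did.

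By family, positive values at 4 h were found for 3 of 4 AMPA, 4 of 5 kainate, 5 of 6 NMDA, 1 of 2 delta, 6 of 7 metabotropic, 10 of 14 GABA-A and 1 of 2 GABA-B genes tested. The largest family median was that of the NMDA genes, 0.20 on the log2 scale. The genes whose groups did not overlap included Gria3, Gria4, Grik3, Grin2a, Grm7, Gabrb2 and Gabbr2. Excitatory neuron markers were positive in 10 of 10 cases as well, with summed levels of 1508 to 1698 CPM in KO and 1151 to 1507 in WT slices. Pan-neuronal markers were positive in 7 of 10, inhibitory neuron markers in 5 of 10 and striatal neuron markers in 4 of 10. Astrocyte and radial glia markers were positive in 0 of 9, endothelial and pericyte markers in 0 of 8 and meningeal markers in 0 of 6; the astrocyte sum was 2430 to 2562 in KO and 2655 to 3005 in WT slices. Immediate early genes, which follow neuronal activity and serum alike, were positive in 0 of 10, with 3 called lower. The part of any of these in the receptor values was not tested.

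Grik3 stood first at 4 h. It had 2847, 3032 and 2615 normalised reads in KO slices, against 2043, 2333 and 2144 in WT slices. All 3 KO libraries lay above all 3 WT libraries, by 0.38 ± 0.08 on the log2 scale (SE, adjusted p = 0.0909, limma). With the replicate number as a block, a fit that called 0.25% of all genes, Grik3 rose in KO at an adjusted p = 0.0451, the only receptor gene to pass. Without KO 1 and WT 1, the libraries with Xist reads, its adjusted p was 0.400 (limma). At 24 h the same gene had 218 ± 8.3 CPM in KO males and 196 ± 39.1 CPM in Het males, but 187 ± 36.8 CPM in KO females and 212 ± 12.8 CPM in Het females (SD, n = 4 and 3). Averaged over the sexes that is a difference of -0.02 ± 0.10 on the log2 scale.

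Gabrb2, the beta2 subunit common in mature receptors, had 1738, 1980 and 1561 normalised reads in KO and 1408, 1438 and 1384 in WT slices at 4 h. The groups did not overlap, and the difference was 0.31 ± 0.08 (log2, SE, adjusted p = 0.161, limma). Grm7 had 837, 835 and 829.3 reads in KO and 795, 651 and 669 in WT slices (0.25 ± 0.09, adjusted p = 0.236, limma). Gabrb1 and Grm2, both of which overlapped between groups, followed at 0.25 ± 0.09 and 0.29 ± 0.11, and Gabbr2 at 0.17 ± 0.06 (log2, SE, adjusted p from 0.252 to 0.271, limma). Gabbr2 had 4001, 3650.4 and 4052 reads in KO and 3492, 3404 and 3501 in WT slices. Its partner Gabbr1 differed by -0.01 ± 0.06.

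The largest value at 4 h belonged to Grin2b and rested on 1 library. Grin2b had 4090.0, 6705 and 3280 normalised reads in KO slices, against 4029, 2994 and 3228 in WT slices. KO 2 stood far above the other 5, which overlapped, and the difference of 0.40 ± 0.19 did not pass (log2, SE, adjusted p = 0.362, limma). Grin2a had 202, 251 and 229 reads in KO and 192, 138 and 198 in WT slices, without overlap (0.38 ± 0.15, adjusted p = 0.279, limma). Grin1 had 1685, 1298 and 1768 reads in KO and 1495, 1286 and 1211 in WT slices, and here KO 2 was the lowest of the KO libraries. Without KO 2, limma called 2 receptor genes, Grik3 and Grin1, and 211 genes in all, where all 6 libraries gave 7.

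**Figure D2:**
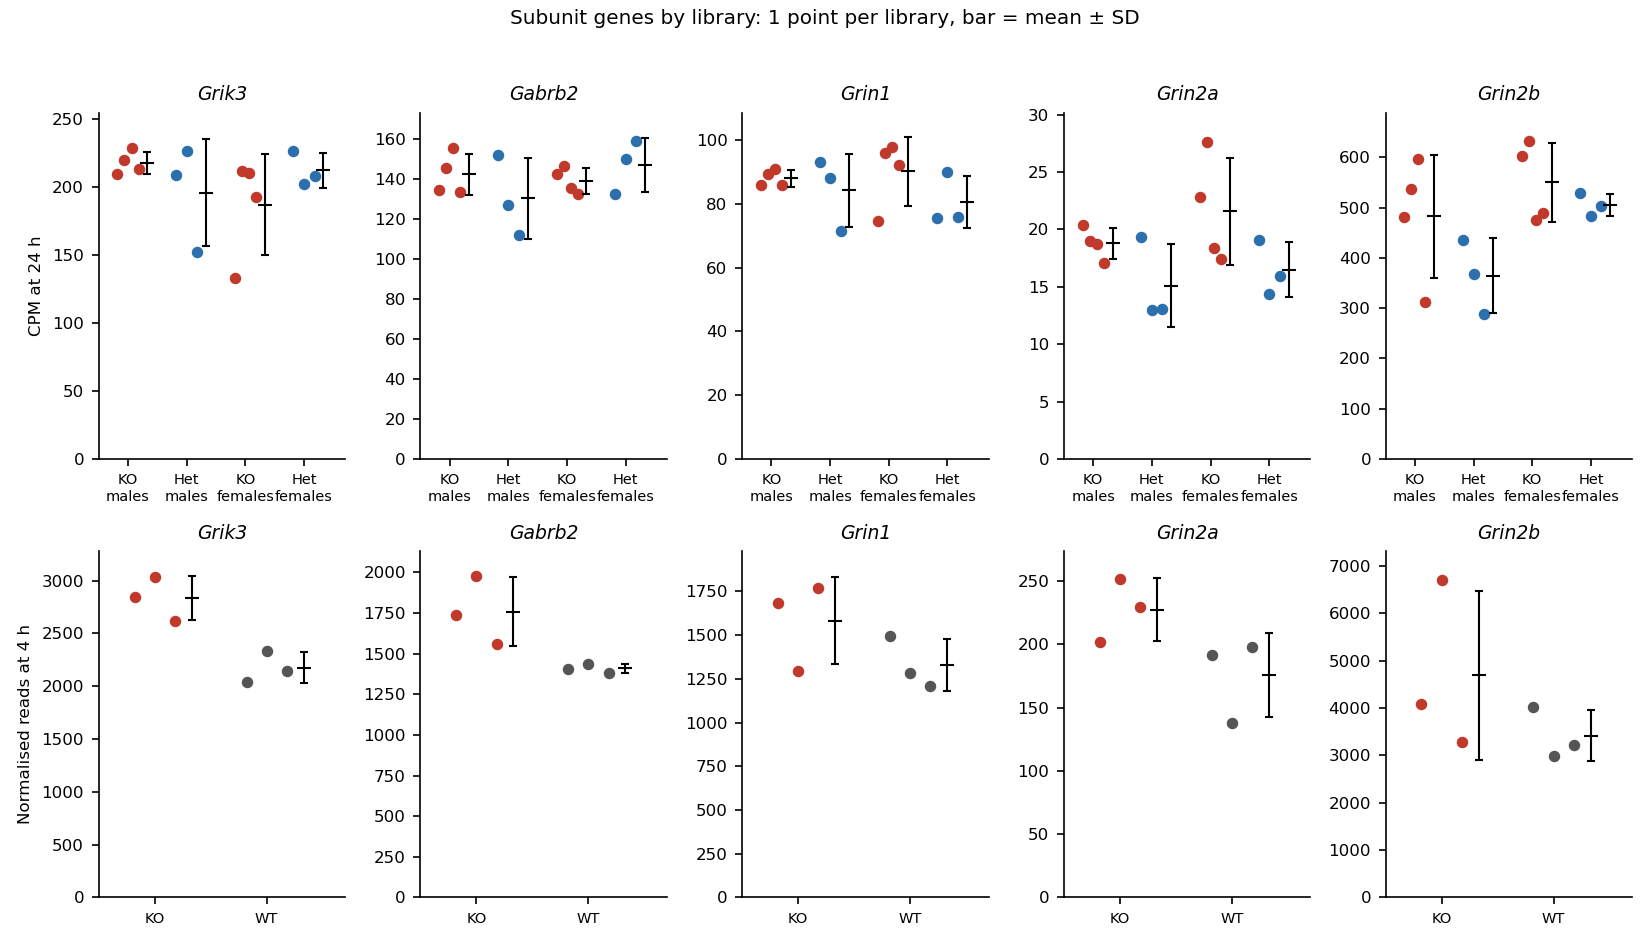
Grik3, Gabrb2, Grin1, Grin2a and Grin2b in every library: CPM at 24 h in the upper row, normalised reads at 4 h in the lower row. Each point is a library and each bar the group mean ± SD; at 4 h the KO points of Grik3, Gabrb2 and Grin2a lie above the WT points, and the high Grin2b point is KO 2.

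**Figure D3:**
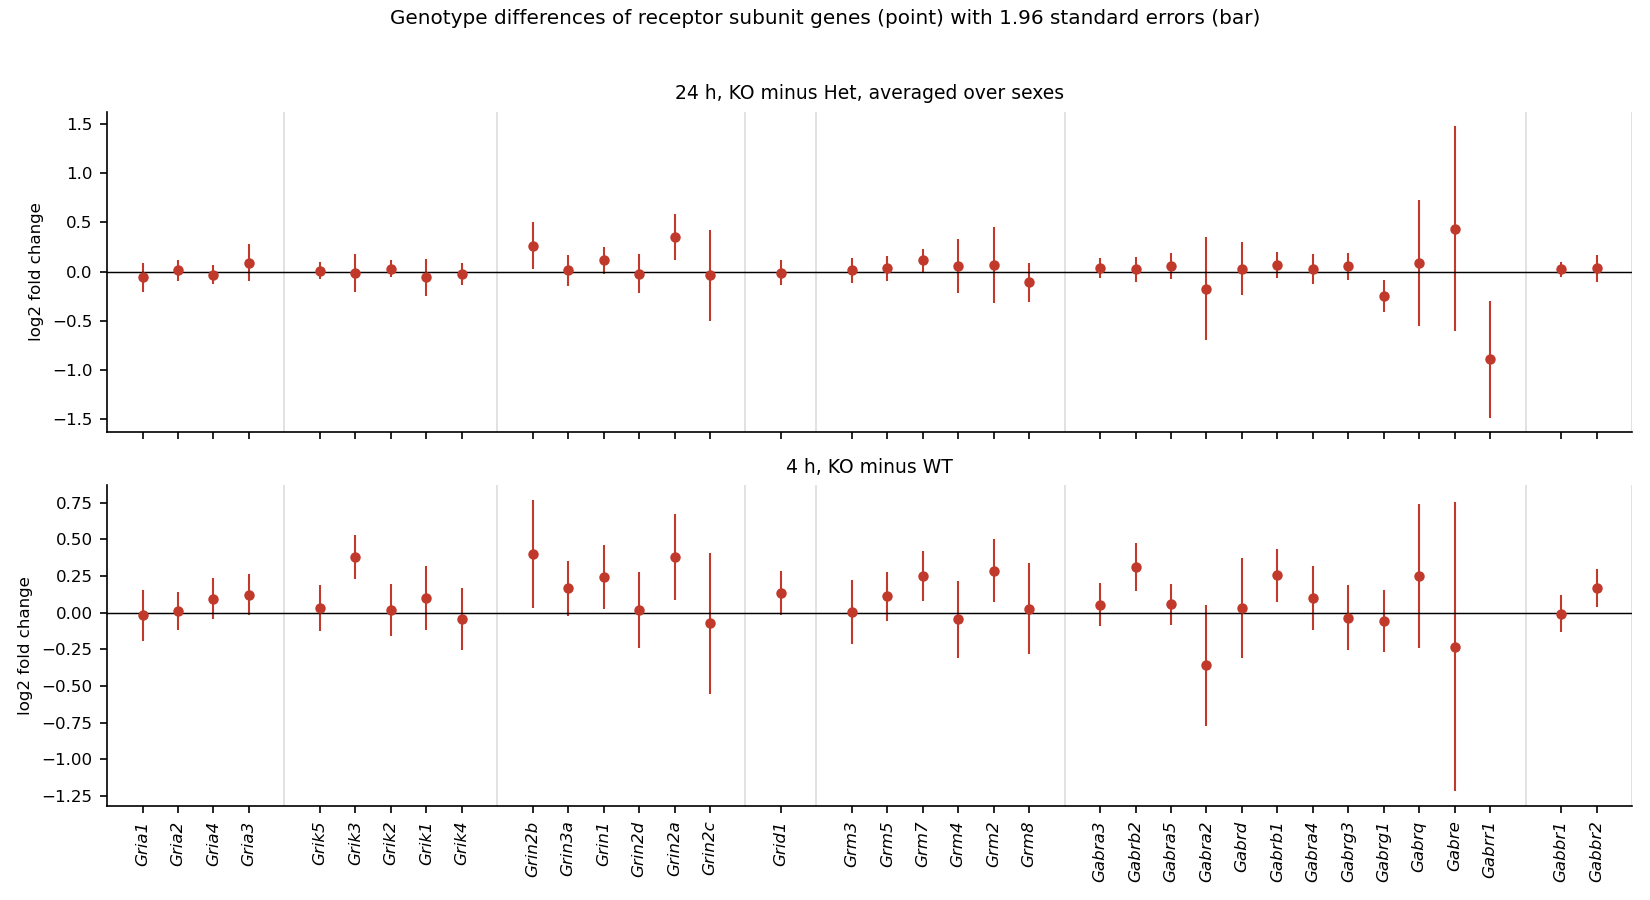
The log2 fold change of tested receptor genes, 36 at 24 h and 35 at 4 h, KO minus Het at 24 h above and KO minus WT at 4 h below, with bars of the 95% interval. At 4 h, 26 of the 35 points lie above 0, and the bars of Gabre, Gabrq and Gabra2 are among the widest.

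Subunit pairs whose balance is known to change with forebrain maturation were compared as ratios within a library. The Grin2a to Grin2b ratio differed by 0.11 on the log2 scale between KO and Het slices at 24 h (exact permutation test within sex, two-sided, p = 0.415). At 4 h the difference between KO and WT was -0.02 (exact permutation test, p = 1). The Gria1 to Gria2 ratio differed by -0.07 at 24 h (exact permutation p = 0.416) and -0.03 at 4 h (exact permutation p = 0.9). After adjustment over the 6 ratio tests the exact p-values were 0.711 to 1. With 3 libraries against 3 the smallest p possible at 4 h was 0.1.

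Among receptor genes that averaged over 5 CPM at 24 h, the widest spreads between libraries were those of Gabre (10.9-fold) and Gabrq (5.00-fold). Their means were only 5.86 and 8.30 CPM. Gabra2, with a mean of 57.4 CPM, came next at 3.28-fold, and 98.6% of the 12350 genes over 5 CPM spread less. The levels of Gabra2 fell in steps. At 24 h it had 30.7, 100.3, 32.6 and 30.6 CPM in KO males, against 74.7, 63.6 and 58.9 CPM in Het males. In females it had 31.1, 72.0, 68.1 and 71.6 CPM in KO and 70.8, 66.3 and 31.9 CPM in Het slices. Of the 14 libraries, 5 lay between 30.6 and 32.6 CPM, 8 between 58.9 and 74.7 CPM and 1 at 100.3 CPM, and none lay in the gaps. The low libraries came from KO males, KO females and Het females, so the steps cut across the labels, and the genotype difference of -0.18 ± 0.27 did not pass (log2, SE, adjusted p = 0.944, edgeR). Each library counted 277 to 1212 Gabra2 reads.

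At 4 h Gabra2 had 427, 530.2 and 443 normalised reads in KO slices and 495, 959.7 and 444 in WT slices. WT 2 thus held 1.81 times the next library, close to the 1.81-fold gap between the low and middle libraries at 24 h. The genes beside Gabra2 did not follow it. The highest library exceeded the lowest 3.28-fold for Gabra2 at 24 h, against 1.57-fold for Gabrg1, 1.43-fold for Gabra4 and 1.55-fold for Gabrb1, the GABA-A genes of the same cluster. Among the 13 other tested genes within 2 Mb that reached 5 CPM the spread ran from 1.23-fold to 1.93-fold, the largest being Tec. The gene spans positions 70957597 to 71095849 of chromosome 5 in GRCm38, and no annotated exon of another gene overlaps its own. What sets the steps was not tested.

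**Figure D4:**
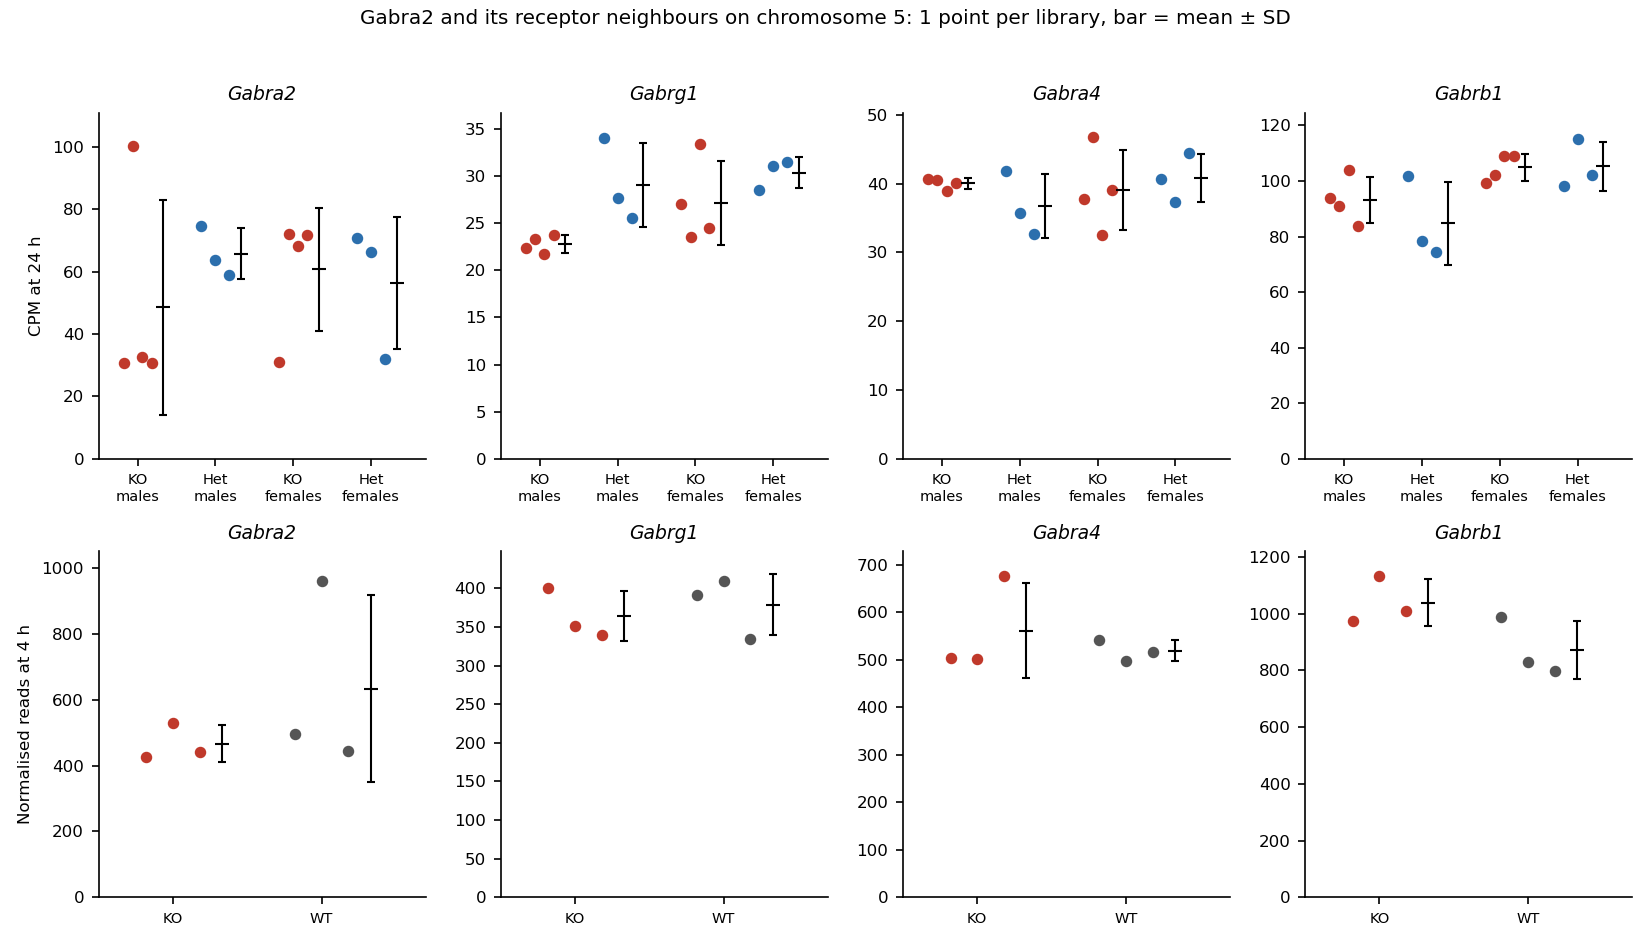
Gabra2 and the 3 GABA-A genes that neighbour it on chromosome 5 in every library: CPM at 24 h in the upper row, normalised reads at 4 h in the lower row. Each point is a library and each bar the group mean ± SD; the Gabra2 points at 24 h fall near 31, between 58.9 and 74.7, and at 100.3 CPM, whereas Gabrg1, Gabra4 and Gabrb1 spread evenly.

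Gabre and Gabrq, the epsilon and theta subunits, which are best known from hypothalamus and brainstem, were the other receptor genes with a wide spread. Gabre had 2.11, 9.97, 4.82 and 2.07 CPM in KO males and 1.77, 2.00 and 9.33 CPM in Het males. In females it had 10.6, 5.79, 15.3 and 2.70 CPM in KO and 2.27, 11.9 and 1.41 CPM in Het slices. High and low libraries occurred in every group. Gabrq had 12.9 and 15.1 CPM in KO females 1 and 3, 14.9 CPM in Het female 2 and 13.7 CPM in Het male 3, against 3.02 to 9.49 CPM in the other libraries, so both genes were high in the same 4 libraries, with KO male 2 high in Gabre and next in Gabrq. Gabra3, which lies between them on the X chromosome, spread only 1.24-fold.

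Grm2, an autoreceptor of excitatory terminals, was high in 3 of those libraries, at 30.2 CPM in KO female 1, 47.7 CPM in KO female 3 and 41.1 CPM in Het female 2, and at 16.8 to 25.9 CPM elsewhere. Choroid plexus markers were high in KO female 1, KO female 3 and KO male 3, with summed levels of 1515, 2764 and 489 CPM, and at 16.2 to 22.3 in the Het libraries. The hypothalamic neuron markers, a list written after these values were seen, had high sums in the 4 libraries high in both Gabre and Gabrq. These were 19.5 CPM in KO female 1, 25.3 in KO female 3, 18.4 in Het female 2 and 18.5 in Het male 3. KO male 2 had 18.3 CPM and KO female 2 had 17.9 CPM, and the other libraries had 12.1 to 15.4 CPM. By group the ranges overlapped: 12.1 to 25.3 in KO females, 13.0 to 18.4 in Het females, 12.9 to 18.3 in KO males and 13.3 to 18.5 in Het males. The part of either in the values of Gabre, Gabrq and Grm2 was not tested.

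**Figure D5:**
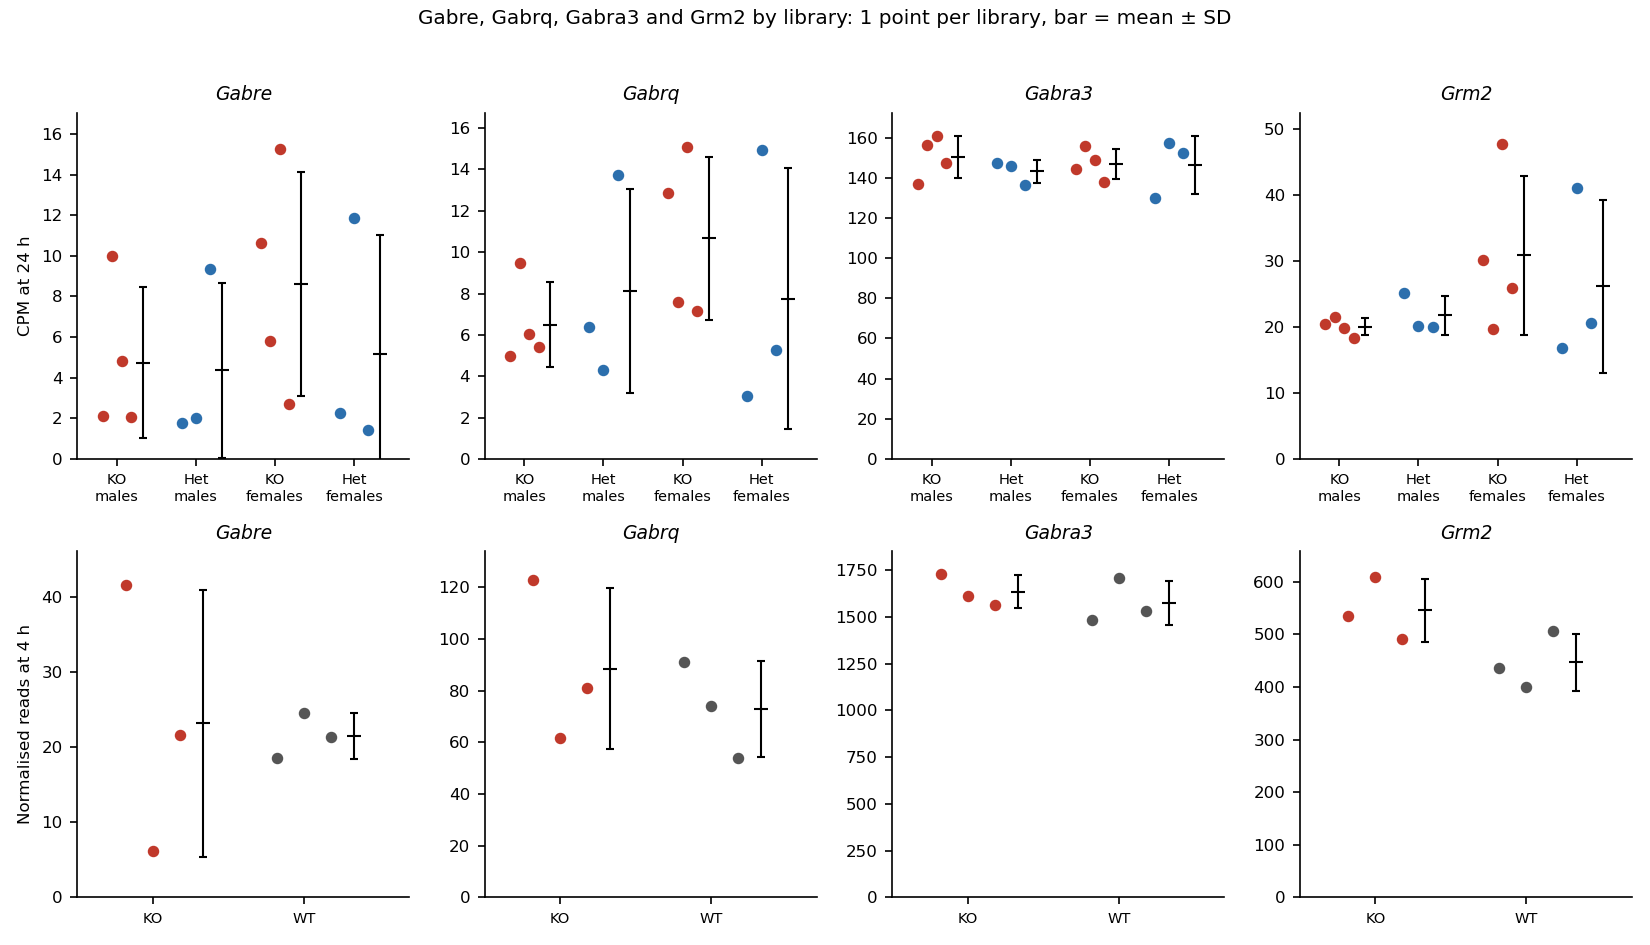
Gabre, Gabrq, Gabra3 and Grm2 in every library: CPM at 24 h in the upper row, normalised reads at 4 h in the lower row. Each point is a library and each bar the group mean ± SD; Gabre has high and low libraries in every group at 24 h, Gabrq has none above 9.49 CPM in KO males, and Gabra3 stays between 130.1 and 161 CPM.

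The 24 h design also allows each sex to be taken alone. In males, edgeR called 0 of 41 receptor genes (0% of all genes), with 6 at an unadjusted p under 0.05 (14.6% of members and 6.87% of all genes), and DESeq2 called 0 receptor genes. KO males lay wholly above Het males for 3 receptor genes, Grik2 among them (3.4% of all genes), and wholly below for Gabrg1 (3.77%). In females edgeR called 0 of 41 (0% of all genes), with 2 at an unadjusted p under 0.05 (4.88% of members and 4.10% of all genes), and DESeq2 again 0; without the library labelled KO female 2, edgeR called 0 and 0 reached an unadjusted p under 0.05 (3.63% of all genes). KO females lay wholly above Het females for 0 receptor genes (2.3% of all genes) and wholly below for Grik2 and Grik4 (2.4%); without that library they lay above for 0 (4.07%) and below for the same 2 genes (4%). In males the difference was -0.35 ± 0.12 for Gabrg1 and 0.16 ± 0.06 for Grik2 (log2, SE, adjusted p = 0.718, edgeR). In females the 3 genes nearest to the threshold were Grin2a at 0.38 ± 0.17, Grm3 at -0.20 ± 0.09 and Gabrr1 at -0.72 ± 0.41 (log2, SE, adjusted p = 1.00, edgeR). Without the library labelled KO female 2 these were 0.25, -0.20 and -0.56, so that the Grin2a value rests in part on that library. The male minus female difference of the genotype effect passed for 0 of 41 genes by edgeR (0% of all genes) and 0 by DESeq2, with 3 at an unadjusted p under 0.05, namely Grm3, Grik2 and Grm5 (7.32% of members and 3.86% of all genes). Without that library 5 reached it (4.49% of all genes).

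Grik2, the kainate subunit GluK2, lay apart in opposite directions in the sexes. It had 86.1, 87.6, 80.7 and 77.6 CPM in KO males, against 75.2, 77.3 and 70.2 CPM in Het males. In females it had 77.9, 77.3, 72.7 and 78.1 CPM in KO, against 79.6, 80.4 and 86.2 CPM in Het slices. The difference between the sexes was 0.26 ± 0.09 on the log2 scale and did not pass (SE, adjusted p = 0.977, edgeR); it was 0.26 also without the library labelled KO female 2. Grm3 averaged 113 ± 9.8 CPM in KO males and 96.7 ± 13.5 CPM in Het males, and 103 ± 7.5 CPM in KO females and 119 ± 9.0 CPM in Het females (SD, n = 4 and 3), a difference of 0.42 ± 0.13 between the sexes (log2, SE, adjusted p = 0.977, edgeR), or 0.42 without the library labelled KO female 2. Grm5 averaged 329 ± 10.3 CPM in KO males and 289 ± 46.3 CPM in Het males, and 305 ± 30.9 CPM in KO females and 333 ± 16.1 CPM in Het females (SD, n = 4 and 3), a difference of 0.31 ± 0.13 between the sexes with the same adjusted p, or 0.35 without the library labelled KO female 2. Striatal neuron markers had a summed level of 768 to 964 CPM in KO males, 684 to 905 in Het males, 479.97 to 951 in KO females and 634 to 805 in Het females, with 8 of 10 positive for the same difference between the sexes, or 9 of 10 without that library; their part was not tested.

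Between the sexes themselves, averaged over genotype, edgeR called 0 of 41 receptor genes (0.0187% of all genes), with 3 at an unadjusted p under 0.05 (7.32% of members and 4.42% of all genes), and DESeq2 called 0. Without the library labelled KO female 2, edgeR called 0 and 4 reached an unadjusted p under 0.05 (5.18% of all genes). Gabrb1 averaged 89.6 ± 11.4 CPM in males and 105 ± 6.2 CPM in females (SD, n = 7 each), a difference of -0.24 ± 0.07 (log2, SE, adjusted p = 0.998, edgeR). Grin2b averaged 432 ± 116 CPM in males and 531 ± 62.3 CPM in females, and Grm2 20.8 ± 2.1 CPM in males and 28.9 ± 11.7 CPM in females (SD, n = 7 each). Male and female libraries overlapped for all 3. Without the library labelled KO female 2 the differences were -0.25 for Gabrb1, -0.29 for Grin2b and -0.54 for Grm2, with adjusted p = 0.937 for each (edgeR). Excitatory neuron markers had the lower mean in males in 10 of 10 cases (9 of 10 without that library) and striatal neuron markers the higher mean in 10 of 10 (10 of 10 without it), and their part was not tested.

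Genes that act with these receptors were followed as lists. At 24 h, 18 of 24 auxiliary subunits, 17 of 26 excitatory scaffolds, 13 of 21 inhibitory scaffolds and GABA receptor partners, 8 of 20 genes of transmitter synthesis and transport and 7 of 13 other ligand-gated receptors tested were positive in KO minus Het. At 4 h the positive genes in KO minus WT were 19 of 24, 23 of 26, 16 of 21, 9 of 20 and 9 of 13 in the same order, with medians of 0.12, 0.14, 0.07, -0.01 and 0.16 on the log2 scale. edgeR at 24 h and limma at 4 h called 0 genes of any of these lists. The auxiliary subunit Nptxr, a pentraxin receptor that gathers AMPA receptors, averaged 4656 ± 341 normalised reads in KO and 3820 ± 67.5 in WT slices at 4 h (SD, n = 3 each), without overlap (0.28 ± 0.07, adjusted p = 0.131, limma). Cnih3, a cornichon protein bound to AMPA receptors, averaged 876 ± 51.4 in KO and 756 ± 33.6 in WT slices (0.21 ± 0.08, adjusted p = 0.255, limma).

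Among excitatory scaffolds, Shank2 averaged 3646 ± 102 normalised reads in KO and 2999 ± 96.5 in WT slices at 4 h (SD, n = 3 each; 0.28 ± 0.06, adjusted p = 0.107, limma), and Dlg2 7236 ± 92.9 in KO and 6377 ± 138 in WT slices (0.18 ± 0.06, adjusted p = 0.217). The groups did not overlap for either. Of the inhibitory list, Nrxn2, a presynaptic adhesion protein, differed by 0.22 ± 0.07 and Lhfpl4, an auxiliary subunit of GABA-A receptors, by 0.20 ± 0.09 (adjusted p = 0.223 and 0.307, limma). Of the other ligand-gated receptors, the glycine receptor subunit Glrb differed by 0.17 ± 0.07 and the nicotinic subunit Chrnb2 by 0.16 ± 0.08 (adjusted p = 0.279 and 0.361, limma).

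Slc17a7, which loads glutamate into synaptic vesicles, averaged 3194 ± 507 normalised reads in KO and 2324 ± 265 in WT slices at 4 h (SD, n = 3 each). The groups did not overlap, and the gene passed with the replicate block (0.45 ± 0.11, adjusted p = 0.129 by limma and 0.0337 with the block). Slc1a3, the glutamate transporter of immature astrocytes, averaged 9192 ± 260.3 in KO and 10726 ± 309.8 in WT slices (-0.22 ± 0.06, adjusted p = 0.168, limma), without overlap. Astrocyte markers as a whole, a list that includes Slc1a3, had 0 of 9 positive values.

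At 24 h the genes nearest to the threshold in these lists were other ones, apart from Shank2. Shank2 averaged 201 ± 9.5 CPM in KO and 185 ± 14.9 CPM in Het slices (SD, n = 8 and 6; 0.12 ± 0.05, adjusted p = 0.738, edgeR). Olfm2 and Olfm3, olfactomedins found with AMPA receptors, differed by 0.13 ± 0.05 and -0.29 ± 0.10, Lrrtm1 by 0.19 ± 0.08 and the GABA-B partner Ajap1 by 0.18 ± 0.07 (log2, SE, adjusted p = 0.738 each, edgeR). Kctd12, another GABA-B partner, differed by 0.16 ± 0.07 (adjusted p = 0.753), the serotonin-gated channel Htr3a by -0.35 ± 0.15 (adjusted p = 0.738) and Glra3 by 0.20 ± 0.12 (adjusted p = 0.814, edgeR). The chloride importer Slc12a2, which keeps chloride high in immature neurons, averaged 50.7 ± 2.6 CPM in KO and 46.2 ± 4.3 CPM in Het slices (SD, n = 8 and 6; 0.14 ± 0.05, adjusted p = 0.738, edgeR). The chloride exporter Slc12a5, given beside it for its opposing role, averaged 232 ± 15.0 CPM in KO and 217 ± 17.1 CPM in Het slices (0.09 ± 0.06, adjusted p = 0.814, edgeR).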

How the data were processed

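Per the labels' protocols, RNA was extracted with a Qiagen kit and libraries were made with Smart-Seq V4 chemistry; TopHat2, HTSeq, DESeq2 1.38.3 and the build GRCm38 (mm10) are listed, without roles, per the submitters' processing notes. At 24 h the authors deposited raw counts of reads. At 4 h they deposited a signal, namely counts divided by 1 size factor per library, from which whole reads were recovered for 100% of values within a tolerance of 0.05. Symbols were matched for 51633 of 51912 identifiers at 24 h and 19673 of 19722 at 4 h.

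At 24 h, edgeR 4.0.16 (R 4.3.3) used TMM scaling, its default filter and 1 mean per genotype and sex over 14 libraries. At 4 h, limma 3.58.1 with a trend used log2(value + 1) for genes with a mean of at least 10. Benjamini-Hochberg adjustment covered all genes tested. Grin3b, Grm6, Gabrp, Gabrr2 and Gabrr3 were too low to be tested at 24 h, and these and Gabrr1 at 4 h. DESeq2 1.42.0 was an alternative. Exact permutation tests were two-sided. Scripts were tested on simulated data. RPKM used the union of exons in GENCODE annotation of GRCm38.

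Same-numbered KO and WT libraries at 4 h deviated together (correlations 0.264, 0.140 and 0.176), so blocked values stand beside results they change. Named genes are the 6 members with the smallest unadjusted p at 4 h and in the averaged 24 h comparison, and 3 in each other comparison; Gabra2, Gabre and Gabrq were singled out after their values were seen. The members and lists were chosen with earlier results of these data known. Receptor genes that enter the counts but are not named or drawn, and 1 gene of the lists, are not reported here. Limits from counts of 0 cover counting error only.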

Additional observations from a re-analysis of the deposited data

Results flagged for a closer look

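Single libraries far from the other 3 of their group were found in 5 of the 76 sets of 4 libraries checked at 24 h, where chance gives about 1 in 20. Gabra2 accounts for 2 of them: KO female 1 had 31.15 CPM, below the 68.07 to 72.01 CPM of the other KO females, and KO male 2 had 100.3 CPM, above the 30.61 to 32.64 CPM of the other KO males. Grin2c, a GluN2 subunit of mature brain and cerebellum, had 5.869 CPM in KO female 4 and 1.872 to 2.242 CPM in the other KO females. Grm8 had 17.35 CPM in KO female 3 and 12.14 to 12.50 CPM in the others, and Grik2 had 72.73 CPM in KO female 3 and 77.33 to 78.13 CPM in the others. KO female 3 is also the library with the highest choroid plexus sum, 2764 CPM, and the part of that in its receptor values was not tested.

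Grik2 was set apart because its KO libraries lay wholly above the Het libraries in males and wholly below them in females. Taken singly, 3.4% and 2.4% of all genes did so, and the share with both is not given here. The difference of 0.2597 between the sexes did not pass (log2, adjusted p = 0.977, edgeR).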

How the results depend on the processing

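At 4 h the count of receptor genes called was 2 with DESeq2 on recovered reads and 1 with the replicate block, and 0 to 2 when 1 library was left out, with 2 without KO 2. Their median log2 fold change was 0.04088 to 0.1244 over those left-out libraries. The count over all genes was 161 with DESeq2, 38 with the block, 1 to 211 with 1 library left out, and 1 without both libraries with Xist reads, against 7. At 24 h, without the filter on low counts edgeR called 2 receptor genes averaged over sexes, 1 in females, 2 in males, 2 for the difference between the sexes and 4 between males and females, with 263, 180, 220, 165 and 215 genes in all; the cause was not tested. DESeq2 called 5, 1, 1, 1 and 5 genes, and the block 6 in the averaged fit, 6 in females and 4 for the difference between the sexes, none a receptor gene. A fit on the male libraries alone called 1 gene. With 1 library left out, 0 to 2 genes were called in the averaged fit and up to 9 between males and females (without KO female 2, against 3).

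The 4 h log2 ratio of Grin2a to Grin2b ran from -0.2529 to 0.1965 over left-out libraries, with 0.1108 without WT 3 and 0.1965 without KO 2, and that of Gria1 to Gria2 from -0.1192 to 0.02365, with 0.00758 without WT 1 and 0.02365 without WT 2. With the length of the longest transcript in place of the exon union, shares within families were, at 24 h, 48.87% for Gria1, 30.05% for Grin2b, 74.26% for Grid1, 31.47% for Grm3 and 76.24% for Gabbr1, and at 4 h 48.09%, 20.82%, 73.37%, 33.79% and 72.79% in the same order. Grin1 then led the NMDA genes in both tables and Grm5 the metabotropic genes at 24 h.

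At 24 h the replicate numbers did not pair the samples (correlations of same-numbered libraries -0.109, -0.0374 and -0.117 in females, 0.0867, 0.0298 and 0.0279 in males), and the block left 0 receptor genes called. Depth limits Gabrr1, Gabrr2, Grm6 and Grin3b, with at most 19 reads in a library. Of the alternatives to values that answer a comparison, 203 kept direction and side of the threshold or moved by less than the spread, 19 moved further and 4 reversed; for single genes and counts over all genes, 455 were kept, 25 counts moved and 10 genes newly passed. Leaving out the library labelled KO female 2 for unadjusted counts, overlaps and marker lists was chosen after seeing the data.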
